A study of Rattus norvegicus with 3 samples.

Results

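The barcodes described here hold at least 1 UMI (a unique molecular identifier, the tag that marks 1 captured RNA molecule) in at least 5 of 7 genes of phagocytes, Lyz2, Spp1, Cd74, Apoe, Ctsz, Ftl1 and Psap, whatever else they hold. They numbered 927 of 5326 barcodes, and are called members below. The tissue was spinal cord from the lesion epicenter of wild-type Sprague Dawley rats aged 17 weeks, taken 49 days after spinal cord injury, and single nuclei were profiled with droplet 3' RNA sequencing. The 3 groups were animals left untreated, animals given a scaffold 7 days before collection, and animals given, at that same time, a scaffold that released hepatocyte growth factor (HGF), which signals through the receptor Met; all 3 groups carried the injury. Each group was 1 library, and the number of animals in it is not given in the sources used here, so no difference between groups has a replicate check. Every interval below covers counting error only. Members numbered 89 of 2252 barcodes in the untreated library, 632 of 2168 in the scaffold library and 206 of 906 in the HGF scaffold library.

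Macrophages and microglia clear myelin and dead cells after cord injury, digest them in lysosomes and present fragments on MHC class II molecules. Of the 7 genes, Lyz2 encodes lysozyme, Spp1 the secreted matrix protein osteopontin, Cd74 the invariant chain that escorts MHC class II, Apoe a lipid carrier, Ctsz a lysosomal cysteine protease, Ftl1 the light chain of ferritin and Psap the precursor of the saposins. Several are also made by other cells, Apoe by astrocytes for example, so that holding them does not by itself fix a cell type.

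The label of phagocyte nuclei was only partly borne out. At least 3 of 27 measured pan-myeloid markers outside the rule were held by 78 of 89 untreated members, 613 of 632 scaffold members and 198 of 206 HGF scaffold members. In the same order, at least 3 of 18 measured fibroblast markers were held by 85, 472 and 135 members, and at least 3 of 17 oligodendrocyte markers by 64, 435 and 68. Barcodes with at least 3 markers of at least 3 non-myeloid lineages made up 67.4% of untreated, 59.2% of scaffold and 31.6% of HGF scaffold members, against 39.8%, 27.2% and 9.43% of the other barcodes. Most untreated and scaffold members therefore held markers of several lineage lists, and they are called by the rule here and not by a cell type. Some lists share genes, such as Mbp (oligodendrocyte and Schwann cell) and Pdgfra (fibroblast and oligodendrocyte precursor), so a single cell can count for several. Members were also deeper than the other barcodes, as given below, and the parts of depth and shared genes in these percentages were not tested. At least 3 of 13 homeostatic microglia markers were held by 29, 276 and 58 members; of these markers P2ry13 and Selplg had no UMI in untreated members, and P2ry12 and P2ry13 none in HGF scaffold members. The doublet caller Scrublet marked 0, 1 and 1 barcodes and so did not work on these libraries. Library pairs shared 3, 1 and 0 barcodes, and no member was shared.

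Membership was more frequent among deeper barcodes in every library. The median member held 3283 UMIs in the untreated, 3020 in the scaffold and 1559 in the HGF scaffold library, while the median of the other barcodes was 1346, 1295 and 935.5 UMIs. In the scaffold library 10.6% of barcodes from 500 to below 1000 UMIs were members, and 76.03% of those with 5000 or more. In the HGF scaffold library the same ranges gave 12.8% and 85.7%, and in the untreated library 1.71% and 12.7%. Within each depth range the intervals of the 2 scaffold libraries overlapped and the untreated library lay below them, as the plot of shares by depth shows.

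**Figure D1:**
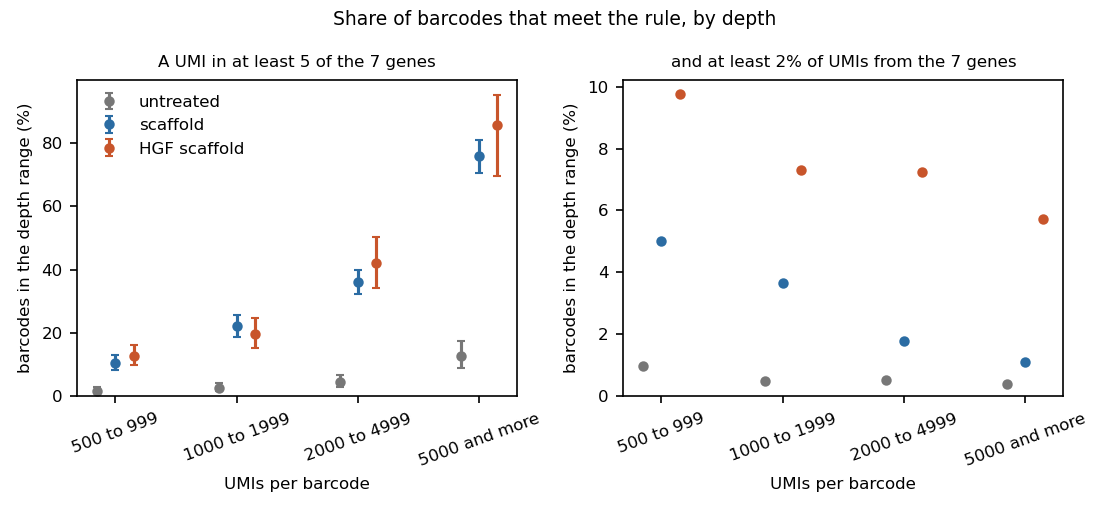
Share of barcodes that are members in each range of UMIs per barcode, for the 3 libraries (left, bars are exact 95% binomial intervals), and share that also draw at least 2% of their UMIs from the 7 genes (right, points only). The left share climbs with depth in every library, to 76.03% and 85.7% in the deepest range of the scaffold and HGF scaffold libraries, while the right share is highest in the shallowest range of each.

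Members made up 3.95% of the untreated library (exact 95% interval 3.19 to 4.84%), 29.2% of the scaffold library (27.2 to 31.1%) and 22.7% of the HGF scaffold library (20.05 to 25.6%). The scaffold share was 7.38 times the untreated share (5.96 to 9.14), and the HGF scaffold share was 5.75 times the untreated share (4.54 to 7.29). The HGF scaffold share was 0.780 times the scaffold share (0.680 to 0.894). That last order turned with thinning. With every barcode thinned to 500 UMIs the shares were 0.622%, 3.37% and 7.84%, and the HGF scaffold share was 2.33 times that of the scaffold (1.69 to 3.20). Thinned to 1000 UMIs, which left out 819 untreated, 677 scaffold and 431 HGF scaffold barcodes, the ratio was 1.43 (1.09 to 1.87). The excess of both scaffold libraries over the untreated library stood at every depth tried, and the order of the 2 scaffold libraries did not. Unthinned, from 1000 to below 2000 UMIs the scaffold share was higher (22.1% against 19.8%), and in the other depth ranges the HGF scaffold share was. Thinning also makes the rule harder to meet. At deposited depth the order likewise turned among members with at least 1% of UMIs from the 7 genes (ratio 1.47). The parts of depth and of content were not tested.

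The rule takes only presence, so the share of a barcode's UMIs drawn from the 7 genes varied widely among members. Its median was 0.768% in untreated, 0.670% in scaffold and 1.38% in HGF scaffold members, against 0.104%, 0.416% and 0.325% in the other barcodes. Members with exactly 5 of the 7 genes numbered 56, 373 and 109, with median shares of 0.703%, 0.653% and 1.05%, and barcodes just outside the rule with 4 genes numbered 141, 462 and 132, with 0.493%, 0.582% and 0.699%. The medians just inside and just outside the rule lay closest together in the scaffold library. Members with at least 2% of their UMIs from the 7 genes, called rich members below, were 15 untreated, 70 scaffold and 76 HGF scaffold barcodes, or 0.666%, 3.23% and 8.39% of their libraries; this bound was set after the data were seen, and 12, 71 and 35 members lay between 1.5% and 2.5%. Rich members were shallow, with medians of 860, 1038.5 and 927.5 UMIs. At least 3 markers of at least 3 non-myeloid lineages were held by 3 of 15, 20 of 70 and 12 of 76 of them. Of the barcodes that were not members, 39.8%, 27.2% and 9.43% did so. Rich members were thus not less mixed than other barcodes in the 2 scaffold libraries.

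**Figure D2:**
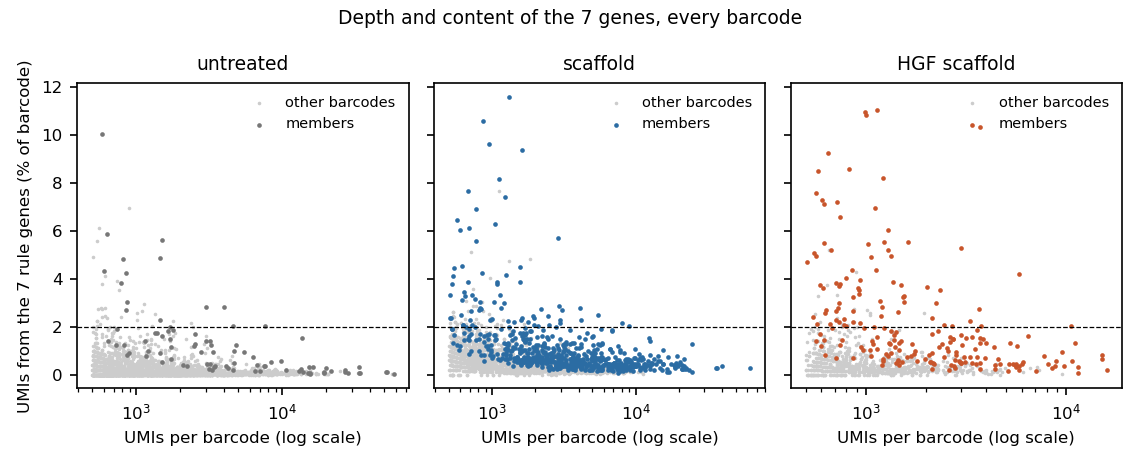
UMIs per barcode (log scale) against the percentage of them from the 7 rule genes, for every barcode of the 3 libraries, members in dark grey or colour and other barcodes in light grey; the dashed line is 2%. The 15, 70 and 76 members on or above the line have median depths of 860, 1038.5 and 927.5 UMIs, and the deepest members of each library lie below it.

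The levels of the 7 genes chose the members and are given as a description, in CPM, the UMIs of a gene summed over a set of barcodes and scaled to a common total. Apoe stood at 1610 CPM in untreated, 2424 in scaffold and 4805 in HGF scaffold members, and in rich members at 13153, 14832 and 15839. Spp1 stood at 787, 1343 and 2641 CPM in members and at 6779, 6663 and 7606 in rich members. Both were highest in HGF scaffold members, and the spread between libraries was narrower in rich members. Lyz2 reached 273, 591 and 1680 CPM in members and 2395, 2665 and 4678 in rich members. Cd74 departed from that order, with 143, 120 and 405 CPM in members and 1551, 447 and 1207 in rich members, lowest in the scaffold library each time.

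RNA of type I collagen, the main fibrous protein of scar, was present in most members. Col1a1 was held by 84 of 89 untreated, 425 of 632 scaffold and 137 of 206 HGF scaffold members, and Col1a2 by 74, 346 and 112. Mmp13, a collagenase, was held by 11, 94 and 45 members, and Ctsk, the collagen-cleaving cathepsin of osteoclasts that fibroblasts also make, by 39, 124 and 42. Members with any of the 4 genes numbered 88, 509 and 162, since 1, 123 and 44 held none. Of the holders, 86, 486 and 152 held a collagen gene, and 2, 23 and 10 held Mmp13 or Ctsk without one. Those 2, 23 and 10 came from the 3, 146 and 54 members that held no collagen gene. The number of such members limits these counts, which therefore do not describe the protease genes by themselves.

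Collagen RNA was also widespread outside the members. Col1a1 or Col1a2 was held by 96.6%, 76.9% and 73.8% of members. Neuron nuclei here are barcodes with at least 3 neuron markers that were not members, whatever else they held. Of these 73.4%, 49.4% and 32.6% held a collagen gene, at median depths of 3870, 2289 and 1675 UMIs against 3283, 3020 and 1559 in members. Most were mixed. Of all barcodes with at least 3 neuron markers, members included, 19 of 374, 13 of 429 and 11 of 54 met that count for no other lineage. Neurons should lack these genes, so free RNA or mixed droplets can give such a share. The share in neurons alone is not given by these values. At 500 UMIs per barcode, collagen was held by 12 of 14 untreated, 44 of 73 scaffold and 45 of 71 HGF scaffold barcodes that still met the rule, against 29 of 136, 20 of 114 and 1 of 21 neuron nuclei. Mixed barcodes were more frequent among members than among other barcodes, as given above, and the part of free RNA and mixed droplets in the members' share was not tested. Mmp13 at that depth was in 2 of 14, 5 of 73 and 10 of 71 members and in 1 of 136, 1 of 114 and 0 of 21 neuron nuclei, where the exact upper limit for 0 of 21 is 16.1%.

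Most members held myeloid markers with or without a collagen gene. Of collagen holders, 75 of 86, 471 of 486 and 145 of 152 held at least 3 pan-myeloid markers. Of the members with none of the 4 genes, 1 of 1, 120 of 123 and 43 of 44 did so, while 1, 37 and 8 of them held at least 3 fibroblast markers. Col1a1 and Col1a2 are on the fibroblast list and are absent from these members by choice, which lowers that count in advance. Collagen holders had median depths of 3309.5, 3660.5 and 1757 UMIs, and members with none of the 4 genes 1445, 2093 and 1202.5. The parts of that choice and of depth in the difference were not tested.

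Among rich members the fibroblast and myeloid marker shares of UMIs are shown barcode by barcode. The median rich member drew 1.37%, 0.611% and 0.932% of its UMIs from fibroblast markers and 0.769%, 0.991% and 1.29% from pan-myeloid markers from the first to the last library. At least 3 markers of each list were held by 11 of 15, 46 of 70 and 47 of 76 rich members, and 0, 20 and 24 met the myeloid count alone. Spearman's rho of the 2 shares was 0.054, -0.18 and -0.39 across 15, 70 and 76 barcodes; the points of a library share its depth and free RNA, and the shares draw on the same total.

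**Figure D3:**
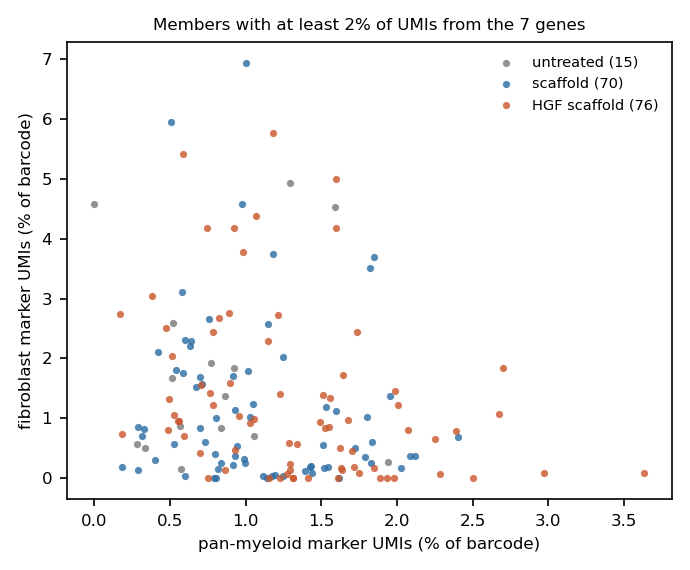
Percentage of UMIs from 27 pan-myeloid markers against the percentage from 18 fibroblast markers, 1 point for each of the 15, 70 and 76 rich members of the untreated, scaffold and HGF scaffold libraries. At least 3 markers of both lists were held by 11, 46 and 47 of these barcodes.

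Members were next compared with Itgam Lyn nuclei, other barcodes with a UMI in each of the leukocyte genes Itgam and Lyn (93, 352 and 178 barcodes). A gene is counted as higher or lower past 2-fold where the CPM ratio is at least 2 either way with a 95% counting interval that excludes 1, among genes with at least 20 UMIs in both sets together. Such counts describe these libraries and are no test, because the members were chosen on the same counts. In the untreated library 524 genes were higher (6.84%) and 150 lower (1.96%), in the scaffold library 216 (2.09%) and 42 (0.407%), and in the HGF scaffold library 462 (7.02%) and 116 (1.76%). Only 4 genes were higher in members of all 3 libraries, 0.0642% of 6228 measured in each, and 0 (0%) were lower. They were Enpp1, an enzyme that makes pyrophosphate, at 2.52, 2.98 and 3.41 times, Serping1, the inhibitor of the complement protease C1, at 3.70, 2.30 and 3.39 times, Serpinf1 at 2.78, 2.25 and 4.92 times and Nupr1, a stress-response gene, at 2.66 and 2.22 times and at least 3.28 times. No pan-myeloid, lysosome or MHC class II gene was among them.

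Rich members stood further apart, with 183 genes higher (5.12% of 3577) and 22 lower (0.615%) than Itgam Lyn nuclei in all 3 libraries. Here CPM is scaled on UMIs outside the 7 genes. The sets also differed in depth and kind of RNA. Itgam Lyn nuclei had medians of 2935, 2082 and 1297 UMIs, against 860, 1038.5 and 927.5 in rich members. Ribosomal protein genes gave Itgam Lyn nuclei 0.496%, 0.766% and 0.791% of UMIs, against 2.90%, 2.66% and 2.94% in rich members. Mitochondrial genes gave 0.0814%, 0.140% and 0.164%, against 0.742%, 0.570% and 0.657%. The part of these differences in the ratios below was not tested. Of 24 lysosome genes measured in all 3 libraries, 11 were higher and 0 lower. Ctsd, the main aspartic protease of lysosomes, stood at 1566, 1605 and 1883 CPM in rich members and at 99.2, 269 and 218 in Itgam Lyn nuclei, or 15.8, 5.96 and 8.62 times. Ctsb, a cysteine protease, was 9.65, 4.46 and 5.36 times as high, and Cd63, a membrane protein of late endosomes, 17.4, 5.57 and 5.81 times. Lamp1, a coat protein of the lysosomal membrane, was 4.53, 2.93 and 2.29 times as high.

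Other groups were also higher in these barcodes. MHC class II genes were higher for 3 of 4, among them RT1-Da, an alpha chain, at 69.96 (23.2 to 283), 7.45 (3.72 to 14.8) and 9.48 times (4.92 to 19.7). The untreated RT1-Da ratio rests on few rich members, whose number is given further below. Of lipid genes, 2 of 11 were higher; Gpnmb, a glycoprotein of lipid-laden phagocytes, was 9.19, 2.44 and 2.46 times as high. Pf4, a chemokine of platelets and resident macrophages, was 95.7, 8.28 and 11.8 times as high. Fibroblast genes were higher for 8 of 16, with Col1a1 at 3.54, 5.20 and 6.95 times. The first of the 22 lower genes by rank were Kcnq3, a potassium channel gene, at 0.0975, 0.330 and 0.152 times, and Tmeff2, at 0.154, 0.374 and 0.372 times. No measured gene of the neuron, oligodendrocyte, OPC (oligodendrocyte precursor) and astrocyte lists was lower (1, 8, 3 and 6 measured), and of the astrocyte list Gfap and Glul were higher.

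The RNA of rich members also differed in kind. Ribosomal protein genes gave 2.90%, 2.66% and 2.94% of their UMIs, against 1.64%, 1.59% and 1.10% in other barcodes of under 1500 UMIs, and mitochondrial genes 0.742%, 0.570% and 0.657% against 0.473%, 0.364% and 0.242%. Tmsb4x, the actin-binding thymosin beta 4, stood at 4452, 4126 and 5562 CPM against 1054, 1405 and 1015. The rich members in these values were of any depth. The 10, 47 and 58 rich members of under 1500 UMIs drew 4.23%, 3.95% and 3.37% of UMIs from ribosomal protein genes. Mitochondrial genes gave them 0.754%, 0.803% and 0.825%, and Tmsb4x stood at 6756, 6732 and 5915 CPM. The part of these differences in the lysosomal levels was not tested. Against those shallow barcodes, 70 genes were higher in rich members of all 3 libraries (1.27% of 5498) and 26 lower (0.473%), with 9 of 29 lysosome genes, 4 of 6 MHC class II genes and 6 of 17 lipid genes higher. Of 16 fibroblast genes 0 were higher in all 3 libraries and 1 was lower, while Col1a1, Col1a2 and Lum, a proteoglycan of collagen fibrils, were higher in both scaffold libraries. Col1a1 stood at 3238, 3058 and 4164 CPM against 3006, 1256 and 1211 CPM in those shallow barcodes. Fabp4, a fatty acid carrier, was 18.3, 6.15 and 4.63 times as high there, Mmp12, the macrophage elastase, 58.8, 5.53 and 11.1 times, and Hmox1, which degrades heme, 9.95, 3.22 and 4.03 times. The untreated Mmp12 ratio rests on 29 UMIs in 5 rich members.

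The lysosome list, the longest used, held the most genes by count that were higher in rich members in both comparisons. By share the MHC class II list stood higher (3 of 4 and 4 of 6, against 11 of 24 and 9 of 29). RefSeq promoters of the GRCr8 assembly (250 bases before to 50 after the start) were searched for the E-box core CACGTG on either strand. The core lies within the longer element that the lysosomal regulator TFEB and its relatives are known to bind. It occurred in 6 of 28 promoters found for 35 listed lysosome genes, 21.4% (8.30 to 41.0%), and in 1826 of 27457 promoters, 6.65%. The longer TCACGTG, which contains the core, occurred in 5 of those 28 (17.9%) and in 3.43% of all promoters. The core occurred in 0 of 6 promoters found for the 7 rule genes (exact upper limit 45.9%), in 1 of 15 of the osteoclast list and in 1 of 11 of the MHC class II list. Of the lysosome genes with the core, Gaa, Glb1 and Mcoln1 were not among those higher in rich members of every library. The windows below show the core in capitals for 3 lysosome genes that were. Each is 30 bases, 5' to 3' on the gene's strand, and a match is a description of letters and not a bound site.
Ctsd, chr1:206968961-206968990, minus strand: tctttcttccccCACGTGactcgcatccag
Cd63, chr7:1921942-1921971, plus strand: ccgggcagcggcCACGTGgcctgtccaggc
Lamp1, chr16:83075084-83075113, minus strand: cgcggcactgttCACGTGacaggcgctgcc
The third base of the core lies 155 (Ctsd), 188 (Cd63) and 36 (Lamp1) bases before the start. The Lamp1 promoter holds 5 such windows, of which the one nearest the start is shown.

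The design next sets the scaffold library against the untreated library, to show what members held where a scaffold had been placed. Of 10393 genes measured in members, 679 (6.53%) were higher past 2-fold in the scaffold library and 496 (4.77%) lower. Inflammatory genes led: 16 of 17 measured were higher and 0 lower, with a median log2 ratio 2.39 above that of all genes, in which 3 genes with no untreated UMI stand at their bound. Neutrophil genes moved with them: 6 of 7 measured were higher, with a median 2.15 above all genes, in which 3 stand at their bound. S100a9, a calcium-binding protein abundant in neutrophils, had 8 UMIs in 6 untreated, 435 in 136 scaffold and 96 in 38 HGF scaffold members. The summed level of the 16 neutrophil genes was 32.9, 306 and 434 CPM in members, with 10, 1 and 3 of them at 0, and at least 3 were held by 1, 55 and 14 members. In the untreated library those at 0 included Cxcr2, Mmp8, Camp and Ltf, and Mpo was at 0 in both scaffold libraries. The part of neutrophil RNA in the inflammatory genes was not tested. The pan-myeloid list had 20 of 27 higher, with a median 1.55 above all genes, the phagocyte NADPH oxidase, which makes superoxide, 5 of 7, and lipid handling 11 of 24. In the barcodes that were not members the same lists had 18 of 18, 23 of 27, 6 of 7 and 14 of 24 higher, where 5.96% of all genes were higher and 2.8% lower. The difference between members and other barcodes was not tested.

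Single inflammatory genes were almost absent from untreated members. Cxcl2, a neutrophil-attracting chemokine, had 1 UMI in 1 untreated member, 1733 UMIs in 149 scaffold members and 88 UMIs in 18 HGF scaffold members, or 1.31, 560 and 157 CPM. Irg1, which makes the antibacterial metabolite itaconate, had 0 UMIs in untreated and 522 in 169 scaffold members and was at least 42.8-fold higher, with untreated set at the floor of 3 counts. Il1b, the inflammatory cytokine interleukin 1 beta, had 8, 692 and 84 UMIs in 5, 204 and 42 members and was 21.3 times as high in the scaffold as in the untreated library (10.7 to 49.5). Rich members were shallower, with medians of 860, 1038.5 and 927.5 UMIs against 3283, 3020 and 1559 in all members. Of 15, 70 and 76 rich members, Cxcl2 was in 0, 4 and 4, Irg1 in 0, 9 and 8, and Il1b in 0, 9 and 15. In scaffold and HGF scaffold rich members Cxcl2 stood at 109.5 and 57.0 CPM, Irg1 at 82.1 and 133 CPM, and Il1b at 146 and 238 CPM, against 224 and 150.0 CPM for Il1b in all members.

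Genes often used to mark alternatively activated macrophages were higher for 6 of 13 and lower for 1. Arg1, which breaks down arginine, stood at 11.8 CPM in untreated, 122 in scaffold and 182 in HGF scaffold members, and the scaffold level was 10.3 times the untreated one (5.39 to 22.8). Cd163, the hemoglobin scavenger receptor, was lower in scaffold members at 0.174 times (0.0879 to 0.338), with 24, 17 and 6 UMIs. Outside that list, Msr1, a scavenger receptor for modified lipoproteins, stood at 49.9, 342 and 580 CPM, 6.85 times as high in the scaffold library (4.96 to 9.73). On the pro-inflammatory list, Nos2, which makes nitric oxide, had 2, 334 and 31 UMIs and was 41.1 times as high (11.3 to 341). Genes of both lists were thus higher in the scaffold library.

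Hgf and Met, the ligand and receptor of the factor in the third library, were higher in scaffold than in untreated members. Met stood at 27.6, 134 and 111 CPM, 4.84 times as high in the scaffold library (3.12 to 7.90), and 0.829 times as high in the HGF scaffold as in the scaffold library (0.624 to 1.08). Hgf stood at 26.3, 76.0 and 143 CPM, with ratios of 2.89 (1.83 to 4.82) and 1.88 (1.44 to 2.43). Of 12 measured genes of the pathway, 4 were higher past 2-fold in scaffold over untreated members and 0 lower; in HGF scaffold over scaffold members 0 passed in either direction. In other barcodes Met was 4.41 and Hgf 3.36 times as high in the scaffold library.

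Fibroblast genes were lower in scaffold than in untreated members, for 12 of 17 measured, with a median log2 ratio 1.40 below that of all genes; in other barcodes 9 of 18 were lower. Col1a1 stood at 2928 CPM in untreated, 844 in scaffold and 2338 in HGF scaffold members, and Col3a1, of type III collagen, was 0.251 times as high in scaffold as in untreated members (0.236 to 0.267). In untreated members 1 barcode held 867 of 2228 Col1a1 UMIs. Without the barcode holding most in each library the Col1a1 ratio went from 0.288 to 0.444. In rich members Col1a1 stood at 3238, 3058 and 4164 CPM, a ratio of 0.944 (0.751 to 1.20). The cartilage proteoglycan gene Acan was at 0.0346 times, but 51 of its 64 untreated UMIs lay in 1 barcode, and likewise 81 of 89 for the chemokine Ccl21, whose ratio went from 0.144 to 1.20 without the barcode holding most.

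In rich members the comparison of scaffold with untreated gave 98 genes higher (5.24% of 1872) and 103 lower (5.5%). Only 3 inflammatory genes could be measured there. The MHC class II list had 4 of 6 lower and 0 higher, while in all members it had 2 of 11 higher and 1 lower, with a median 0.45 above all genes that turned to -1.19 without mixed barcodes. RT1-Ba, an MHC class II alpha chain, had 18 UMIs in 5 of 15 untreated, 8 in 6 of 70 scaffold and 32 in 20 of 76 HGF scaffold rich members, and was 0.120 times as high in scaffold as in untreated rich members (0.0453 to 0.291). Those untreated values rest on 5 barcodes or fewer for RT1-Da, RT1-Db1, RT1-Ba and RT1-Bb, with 4, 4, 5 and 3 barcodes. The rule gene Cd74 stood at 1551 CPM in untreated and 447 in scaffold rich members. The part of the rule in these class II ratios was not tested.

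**Figure D4:**
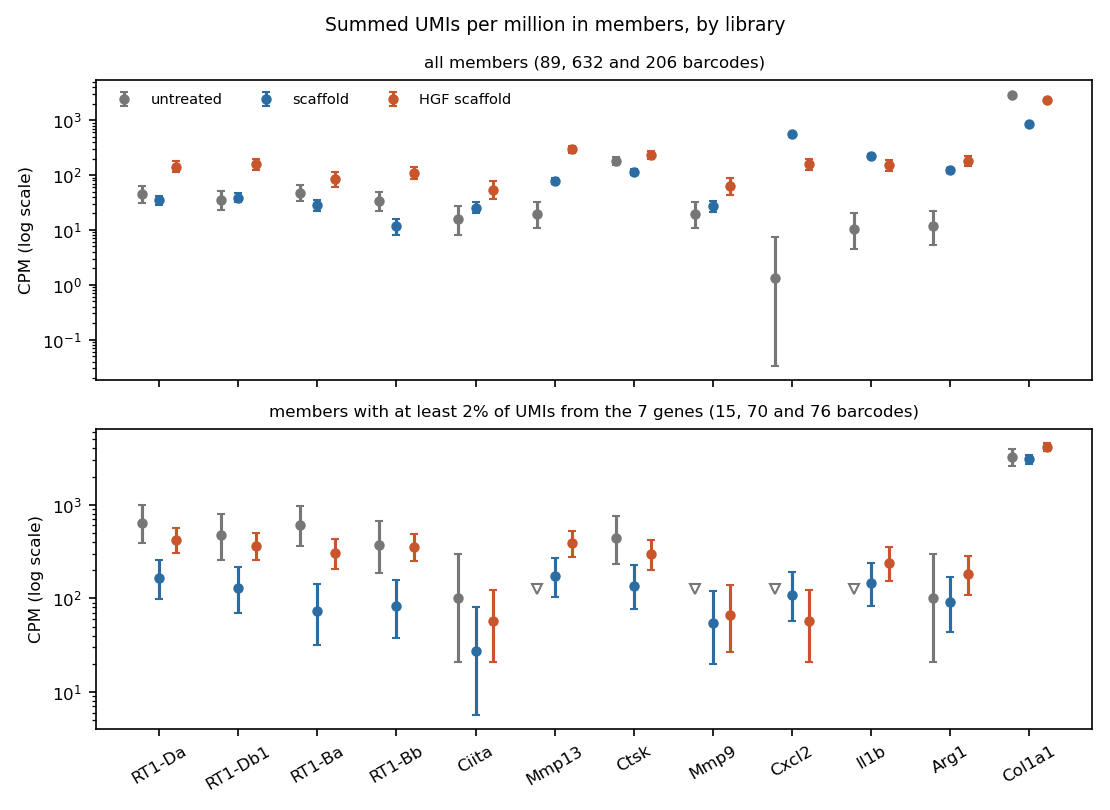
CPM (log scale) of 12 genes in members (top) and rich members (bottom) of the 3 libraries, with exact 95% Poisson intervals; an open triangle marks the upper bound of a gene with no UMI. The points of RT1-Da, RT1-Db1, RT1-Ba and RT1-Bb lie higher in HGF scaffold than in scaffold barcodes in both panels, and Cxcl2, Il1b and Arg1 are lowest in untreated members in the top panel.

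The last comparison sets the scaffold that released HGF against the scaffold alone. In members 319 of 10241 genes (3.11%) were higher past 2-fold with HGF and 560 (5.47%) lower. The MHC class II list led, with 7 of 11 higher and 0 lower and a median log2 ratio 1.43 above all genes. Members were chosen partly on Cd74, the escort of MHC class II. Cd74 stood at 120 CPM in scaffold and 405 in HGF scaffold members, and at 447 and 1207 in rich members. The median share of UMIs from the rule genes was 0.670% in scaffold and 1.38% in HGF scaffold members. The part of that choice in the class II ratios of members and rich members was not tested. RT1-Bb, a beta chain, had 26 UMIs in 14 untreated members, 36 in 28 scaffold members and 62 in 45 HGF scaffold members, or 34.2, 11.6 and 111 CPM. Its ratio of HGF scaffold to scaffold was 9.51 (6.21 to 14.8). RT1-Da had 44.7, 34.9 and 143 CPM, a ratio of 4.09 (3.02 to 5.51), and RT1-Db1, its beta chain partner, 35.5, 38.8 and 157 CPM, a ratio of 4.05 (3.04 to 5.38). Ciita, the master regulator of these genes, had 12, 79 and 30 UMIs and a ratio of 2.10 (1.33 to 3.23). RT1-DMa and RT1-DMb, which load peptide onto class II molecules, were 2.71 and 2.79 times as high.

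MHC class II genes were also higher with HGF among rich members, for 4 of 7 measured, where 3.6% of 2863 genes were higher and 5.03% lower. RT1-Ba was 4.17 times as high there (1.88 to 10.5), RT1-Bb 4.28 (2.03 to 10.1), RT1-Db1 2.83 (1.497 to 5.65) and RT1-Da 2.55 (1.44 to 4.68). In the barcodes that were not members 3 of 11 were higher, with RT1-Bb at 4.78 times (2.85 to 8.14) and RT1-Da at 1.99 (1.30 to 3.01), where 1.7% of all genes were higher and 3.5% lower. The class I genes RT1-A1 and RT1-A2 were 4.88 and 4.78 times as high in members, and 2.82 and 2.06 times as high in other barcodes. The RT1 genes form a family of close copies and alleles, so that reads may be split between them and each single value is uncertain. Whether sequence differences between animals at this locus took part was not tested.

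Of 17 measured genes of the matrix protease and inhibitor list, 5 were higher with HGF (Mmp3, Mmp9, Mmp12, Mmp13 and Mmp14). The list's median log2 ratio was 0.36 above all genes, and -0.20 over 9 genes without Col1a1 or Col1a2 holders. Mmp13 stood at 19.7, 77.3 and 296 CPM in untreated, scaffold and HGF scaffold members. Scaffold over untreated gave 3.92 (2.33 to 7.11), which turned to 0.504 without mixed barcodes. HGF scaffold over scaffold gave 3.84 (3.13 to 4.70), but 82 of the 166 HGF scaffold UMIs lay in 1 of 45 barcodes, and without the barcode holding most in each library the ratio was 2.08. In rich members Mmp13 was in 0 of 15 (exact upper limit 21.8%), 11 of 70 and 19 of 76 barcodes, with a ratio of 2.25 (1.28 to 4.10), and in other barcodes it was 1.16 times as high (0.845 to 1.57). Ctsk stood at 184, 114 and 234 CPM, a ratio of 2.06 (1.67 to 2.52), with 68 of 140 untreated UMIs in 1 barcode. Of the 19 measured genes of the osteoclast and giant cell list 4 were higher, the other two being Mmp14, which activates other matrix proteases, at 2.03 and Mmp9, a gelatinase, at 2.33; Mmp9 was 1.74 times as high without its top barcode, 0.403 without collagen holders and 2.95 in other barcodes. Other osteoclast genes did not reach 2-fold: Acp5, the tartrate-resistant acid phosphatase, stood at 30.2, 32.3 and 58.9 CPM, a ratio of 1.82 (1.19 to 2.73), and Atp6v0d2, a proton pump subunit, at 63.1, 49.8 and 44.6, a ratio of 0.897 (0.563 to 1.37).

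Fibroblast genes were higher with HGF too, 8 of 17 in members and 2 of 17 in other barcodes, and without collagen holders the list's median was at -0.95 against all genes. Col1a1 was 2.77 times as high (2.59 to 2.96) in members and 1.63 times in other barcodes, but 1.36 times in rich members (1.18 to 1.57). Fibroblast markers summed to 12827, 4237 and 8646 CPM in members, and their part in the protease levels was not tested. Lysosome genes were higher for 5 of 35. Among them were Gm2a, the activator that lets hexosaminidase degrade gangliosides, at 2.82 times (2.07 to 3.82), and Grn, progranulin, at 2.33. The median share of UMIs from lysosome genes, among UMIs outside the rule genes, was 0.793% in scaffold and 1.09% in HGF scaffold members. In rich members it was 1.69% in the scaffold and 1.59% in the HGF scaffold library. Across members this share rose with that of the rule genes (Spearman's rho 0.634 in scaffold and 0.689 in HGF scaffold members). The part of the rule-gene share in the lysosome ratios was not tested. Pro-inflammatory genes were higher for 0 of 18 and lower for 2, with Cxcl2 at 0.280 times (0.224 to 0.348). Of the 88 Cxcl2 UMIs of HGF scaffold members, 43 lay in 1 barcode. Il1b was 0.670 times as high (0.528 to 0.842) and did not reach 2-fold. In rich members, as given above and on few barcodes, Il1b and Irg1 stood higher in the HGF scaffold than in the scaffold library, and Cxcl2 lower. The direction for Il1b thus depended on which members were taken.

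Genes of neurons and glia were lower with HGF. The neuron list had 6 of 12 lower, the oligodendrocyte list 6 of 17 and the astrocyte list 5 of 11, with 0 higher in each. Outside these lists, Nrxn3, a synaptic adhesion gene, had 2577 UMIs in 279 scaffold members and 45 in 29 HGF scaffold members, a ratio of 0.0964, and Snhg11, a neuronal RNA, 1010 and 13 UMIs. In other barcodes 7 of 14 neuron genes were lower and 0 of 17 oligodendrocyte genes. Members of the HGF scaffold library were shallower and less mixed than those of the scaffold library, as given above, and the part of that in these ratios was not tested. Hba1, a hemoglobin gene, was 4.81 times as high in members (3.18 to 7.24) and 3.75 times in other barcodes. It was the only one of 5 measured erythroid genes past 2-fold in that comparison, in members and in other barcodes; Hbb, the beta chain gene, was 0.971 times as high in members (0.733 to 1.27).

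**Figure D5:**
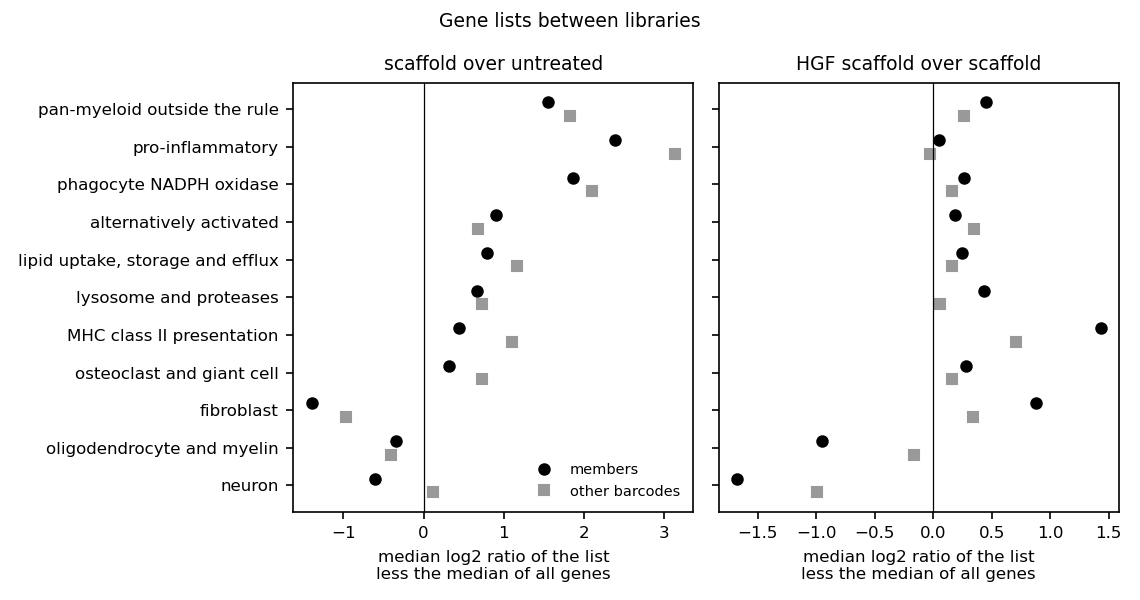
Median log2 ratio of each gene list less the median of all measured genes, in members (black circles) and in other barcodes (grey squares), for scaffold over untreated (left) and HGF scaffold over scaffold (right). On the left members and other barcodes lie on the same side of 0 for each list drawn but the neuron list; on the right MHC class II lies farthest above 0 (1.43 in members, 0.71 in other barcodes) and the neuron list farthest below it.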

How the data were processed

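Nuclei from spinal cord were profiled as 3' droplet libraries, 1 per group. The authors deposited whole-number UMI counts per gene and barcode, made with Cell Ranger 6.0.1 as the file headers and the submitters' notes give it; the genome build and annotation are not given in the sources used here. The tables hold 17328 genes, and every deposited barcode was used (the shallowest had 500 UMIs). The members, the bound of 2% and the 36 gene lists (530 of 566 listed genes matched) were chosen with earlier results of these data known. Depth came to 5953189 UMIs (untreated), 5791715 (scaffold) and 1450757 (HGF scaffold). UMIs were summed over the barcodes of a set and divided by its total. Intervals at 95% were exact Clopper-Pearson for shares, exact Poisson for CPM, exact conditional for gene ratios and a normal approximation on the log scale for ratios of shares (scipy 1.17.1, numpy 2.4.6, pandas 2.3.3); they leave out spread between barcodes, animals and libraries. A gene at 0 was set at 3 counts per set, and its ratio is a bound. With 1 library per group no test was run. For equal depth, barcodes were thinned to 500 or 1000 UMIs. Mixed barcodes hold at least 3 markers of at least 3 non-myeloid lineages. Genes named are the rule genes and Col1a1, Col1a2, Mmp13 and Ctsk; from each list up to 4 with the most UMIs and up to 4 past 2-fold, and markers at 0; the 12 farthest from 1 each way between libraries; and the 15 farthest each way against like nuclei. Names beyond these, such as Acp5, were chosen after their values were seen. The call of 1 gene of the matrix protease and inhibitor list is not reported here. Counts were also simulated with counting error alone (Poisson) and 200 genes changed 4-fold. There the 2-fold count recovered 96.6% of the changed genes measured for scaffold over untreated (10332 genes). For HGF scaffold over scaffold it recovered 92.9% (10203 genes). It counted 1.00% and 0.969% of unchanged genes. The simulation held no spread between barcodes, animals or libraries, so these rates do not carry over to the real counts.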

Additional observations from a re-analysis of the deposited data

How the results depend on the processing

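No paired analysis was possible because each group is 1 library and the labels give no replicate numbers; leaving out a library was not possible either. Where a value below moved, the cause was not tested unless the setting itself removes barcodes or genes. The excess of the scaffold over the untreated share (7.38) was 4.94 with 4 of 7 genes, 9.42 with 4 of the first 5 genes, 5.42 and 9.42 thinned to 500 and 1000 UMIs, 4.85 and 3.92 with at least 2% and 3% of UMIs from the 7 genes, and 2.61 with 2% whatever number was held. HGF scaffold over scaffold (0.780) was 0.896 with 6 of 7 genes and 0.970 without mixed barcodes, and turned to 2.33 and 1.43 thinned, to 1.47, 2.60 and 3.45 with at least 1%, 2% and 3%, and to 2.06 with 2% whatever number was held. HGF scaffold over untreated (5.75) was 3.65, 7.31 and 7.64 with 4 of 7, 6 of 7 and 4 of 5 genes, 12.6 and 13.5 thinned, 8.35 without mixed barcodes, and 8.84, 12.6 and 13.5 with at least 1%, 2% and 3%. The shares themselves (untreated, scaffold, HGF scaffold) were 10.2%, 50.5% and 37.3% with 4 of 7 genes, 1.47%, 11.9% and 10.7% with 6 of 7, 1.82%, 17.2% and 13.9% with 4 of 5, 0.622%, 3.37% and 7.84% thinned to 500 UMIs, 1.05%, 9.86% and 14.1% thinned to 1000, 2.18%, 18.8% and 18.2% without mixed barcodes, 1.60%, 9.59% and 14.1% with at least 1%, 0.666%, 3.23% and 8.39% with 2%, 0.400%, 1.57% and 5.41% with 3%, and 1.91%, 4.98% and 10.3% with 2% whatever number was held.

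Genes higher in scaffold over untreated members (679) numbered 266 without mixed barcodes and 98 in rich members, and genes lower (496) numbered 103 in rich members and 250 without the barcode with the most UMIs of each gene. For HGF scaffold over scaffold, genes higher (319) numbered 200 with at least 50 UMIs, 153 without collagen holders, 186 without mixed barcodes, 103 in rich members and 177 without the top barcode; genes lower (560) numbered 321 without collagen holders, 356 without mixed barcodes and 144 in rich members. Over Itgam Lyn nuclei, genes higher in untreated, scaffold and HGF scaffold members (524, 216 and 462) numbered 302 and 265 in the untreated and HGF scaffold libraries with at least 50 UMIs, 121 and 121 in the 2 scaffold libraries without collagen holders, and 717 in scaffold rich members. Genes lower (150, 42 and 116) numbered 70, 12 and 44 with at least 50 UMIs, 273 in the untreated library with equal weight per barcode, 174 in the scaffold library without collagen holders, and 299, 269 and 333 in rich members. Without collagen holders 3 untreated members remained, under the 10 barcodes set as a minimum, so that setting was not run against them.

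For scaffold over untreated, list medians less all genes turned as follows. Homeostatic microglia genes went to -0.093 with 6 of 7 genes, -0.23 with equal weight and -0.34 without mixed barcodes, and complement genes to 0.24 with 6 of 7 genes. MHC class II genes went to -0.61 with equal weight. Without mixed barcodes, MHC class II went to -1.19, lipid genes to -0.059, iron and heme genes to -0.39, glycolysis to -0.35 and interferon genes to -0.059. In rich members, MHC class II went to -2.04, perivascular macrophage genes to -0.57, lipid genes to -0.16, engulfment genes to -0.29, matrix proteases to 0.059, iron and heme genes to -0.28, NADPH oxidase to -0.31 and complement to 0.51. Single ratios that turned were Mmp13 at 0.504, Il1rn at 0.460, Cybb at 0.863 and Plau at 0.25004 without mixed barcodes, Il1rn at 0.782 and Plau at 0.476 with equal weight, Ccl21 at 2.14 with 6 of 7 genes and 1.20 without its top barcode, and, in rich members, Col1a2 at 1.34, Timp1 at 1.13, Il1rn at 0.601 and Cybb at 0.872. For HGF scaffold over scaffold, the matrix protease list went to -0.20, the fibroblast list to -0.95 and Mmp9 to 0.403 without collagen holders, and Col1a2 to 0.964 in rich members.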
